A study of Mus musculus with 6 samples.

Results

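The genes described here encode RNA splicing factors: the heterogeneous nuclear ribonucleoproteins (symbols beginning Hnrnp), the serine/arginine-rich SR proteins (Srsf), the subunits of SF3a and SF3b, the U2AF subunits, the small nuclear ribonucleoprotein (snRNP) proteins named Snrp, and the PRPF proteins. Members were taken by symbol from the probe sets that the platform annotation assigns to a single gene, which gave 57 of the 12394 genes compared, and the probe set with the highest mean over all arrays stood for each gene. The members have 141 probe sets in all. A further 15 probe sets pair a symbol of these families with another gene (Hnrnpa3 with Gm6793, for example) and were left out (changes from -0.15 to 0.26), so Hnrnpa3, Snrpa, Snrpd1 and Snrpd2 were not analysed here.

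The study measured regulatory T (Treg) cells, the CD4 T cells that restrain immune responses under the transcription factor Foxp3. Cells were sorted as CD4+CD25+YFP+ from mouse spleen and lymph nodes. All mice carried Foxp3YFP-Cre, in which the Foxp3 locus drives a Cre recombinase with a YFP reporter. The 3 arrays labelled Gata3-deficient (titles GATA3KO) came from mice with both Gata3 alleles floxed, and the 3 labelled Gata3-sufficient (titles WT) from mice with 1 floxed and 1 intact allele, so the controls were heterozygous for the floxed allele and carried the Cre as well. The design text gives 3 mice per group, and no age or sex was given in the sources used here. Each array is a set of RMA log2 intensities for 22690 Affymetrix probe sets, and a difference of log2 values is called a change below, always Gata3-deficient minus Gata3-sufficient. Having 3 arrays a group limits how precisely any change is known.

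Most mammalian genes are transcribed with introns, which the spliceosome removes. The U1 snRNP and the U2AF dimer mark the ends of an intron, the U2 snRNP with SF3a and SF3b engages the branch point, and the U4/U6.U5 tri-snRNP, which holds several PRPF proteins, joins to form the catalytic machine. SR proteins mostly promote and hnRNP proteins often repress the use of nearby exons, and both act as sets rather than singly. Activated lymphocytes change the splicing of many transcripts, of which that of the phosphatase CD45 is the textbook case and depends on hnRNP L and its relative hnRNP LL. Many SR and hnRNP genes also make unproductive transcripts through their own alternative exons, by which they control their own amount.

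The labels were checked first on Gata3. The Gata3-sufficient arrays read 9.57, 9.41 and 9.47 on its probe set, and the arrays labelled Gata3-deficient 9.83, 9.98 and 9.71. Gata3 was thus higher, not lower, in the latter (change 0.35 ± 0.07, SE, adjusted p = 0.0387 by limma). The groups did not overlap, but the call held in 2 of the 6 fits with an array left out, those without sufficient replicate 1 or deficient replicate 3. It was lost without each of the other 4 arrays (adjusted p up to 0.182, change 0.28 to 0.42 over the 6 fits) and without limma's intensity trend (0.15). Whether this probe set lies in the deleted part was not determined, and one outside it would check nothing about the labels. An exchange of the labels, which would turn every direction below, was not tested. Each direction below thus rests on the labels alone. Foxp3 lay on a dim probe set, at 3.82 to 4.06 over the 6 arrays, while 5 of the 6 Treg markers and all 7 measured markers of T cells were not dim. A mean log2 intensity below 5.25, the 40th percentile of all probe sets, is called dim here. Array medians lay between 6.06 and 6.11. Replicate 1 of the deficient arrays stood apart from the other two of its group, at 0.65 on the second principal component of all genes against -0.43 and -0.53. In bulk RNA, a different mix of cells and a different amount of RNA per cell cannot be told apart.

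Transcripts of the splicing factors differed little between the groups. Of 57 members 2 passed an adjusted p of 0.05, Prpf4b and Hnrnpa2b1, and both fell in the arrays labelled Gata3-deficient. Over all 12394 genes 2.21% passed, 0.766% as lower and 1.44% as higher. At an unadjusted p under 0.05 there were 3 higher and 3 lower members, where 14.4% of all genes passed, 8.63% as higher and 5.8% as lower. The groups were fully separated in 14 members, 9 of them higher and 5 lower in the deficient arrays, against 19.8% of all genes. With each array left out in turn, Prpf4b passed in 1 of the 6 limma fits, that without sufficient replicate 1 (adjusted p = 0.0147), and not in the others (up to 0.182). Hnrnpa2b1 passed in 0 of the 6 (0.051 to 0.177). The changes themselves stayed between -0.29 and -0.21 for Prpf4b and between -0.19 and -0.16 for Hnrnpa2b1.

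Their promoters are shown because these are the members that passed. The stretches are the 250 bases before the annotated start, in RefSeq's table for GRCm38.p6, at chr13:34875279-34875528 on the plus strand for Prpf4b and chr6:51469895-51470144 on the minus strand for the first of the 2 starts of Hnrnpa2b1. Capitals mark a match to CCGGAAG, the core bound by ETS-family factors.
Prpf4b: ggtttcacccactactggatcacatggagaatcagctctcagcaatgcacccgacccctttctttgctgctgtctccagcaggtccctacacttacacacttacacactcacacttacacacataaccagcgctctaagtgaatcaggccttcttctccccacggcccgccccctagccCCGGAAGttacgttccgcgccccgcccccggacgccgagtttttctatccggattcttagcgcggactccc
Hnrnpa2b1: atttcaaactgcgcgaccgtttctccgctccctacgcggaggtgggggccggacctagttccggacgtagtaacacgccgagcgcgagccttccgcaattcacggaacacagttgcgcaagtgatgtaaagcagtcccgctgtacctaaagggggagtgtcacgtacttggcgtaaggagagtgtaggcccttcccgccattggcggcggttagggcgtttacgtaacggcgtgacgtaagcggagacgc
The first holds 1 match, and neither stretch holds a GATA word (GATA after A or T and before A or G) on either strand. RefSeq promoter windows of 300 bases were found for 51 of the 57 members, 71 windows in all. A GATA word was in 16.9% of these windows and in 29.8% of all 32851 windows, CCGGAAG in 33.8% and 8.9%, and TATAAA in 8.5% and 13.6%, counting both strands. The members' windows were richer in G and C, with a median of 60.0% against 52.7%. They also held more CG pairs, which CCGGAAG contains, with a median of 25 against 7. These are letters in a window. The arrays did not measure binding.

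Prpf4b encodes a nuclear kinase associated with the tri-snRNP. Its brightest probe set read 10.31, 10.46 and 10.44 in replicates 1, 2 and 3 of the sufficient arrays, against 10.18, 10.13 and 10.16 in the deficient ones. All 3 deficient arrays were below all 3 sufficient ones, and sufficient replicate 1 was the lowest of its group. The change was -0.24 ± 0.05 (SE, n = 3 and 3, adjusted p = 0.0398 by limma), or 1.18-fold lower. Hnrnpa2b1, whose product binds pre-mRNA and also sorts RNAs for transport, read 12.15, 12.18 and 12.19 against 11.97, 12.03 and 12.00. The groups did not overlap here either, and the spread within each was small (SD 0.02 and 0.03). It fell by 0.18 ± 0.04 on the log2 scale (SE, adjusted p = 0.0417 by limma), or 1.13-fold. Without limma's intensity trend, which lets bright probe sets have a smaller expected variance, neither passed (adjusted p = 0.175 for Prpf4b and 0.246 for Hnrnpa2b1).

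**Figure D1:**
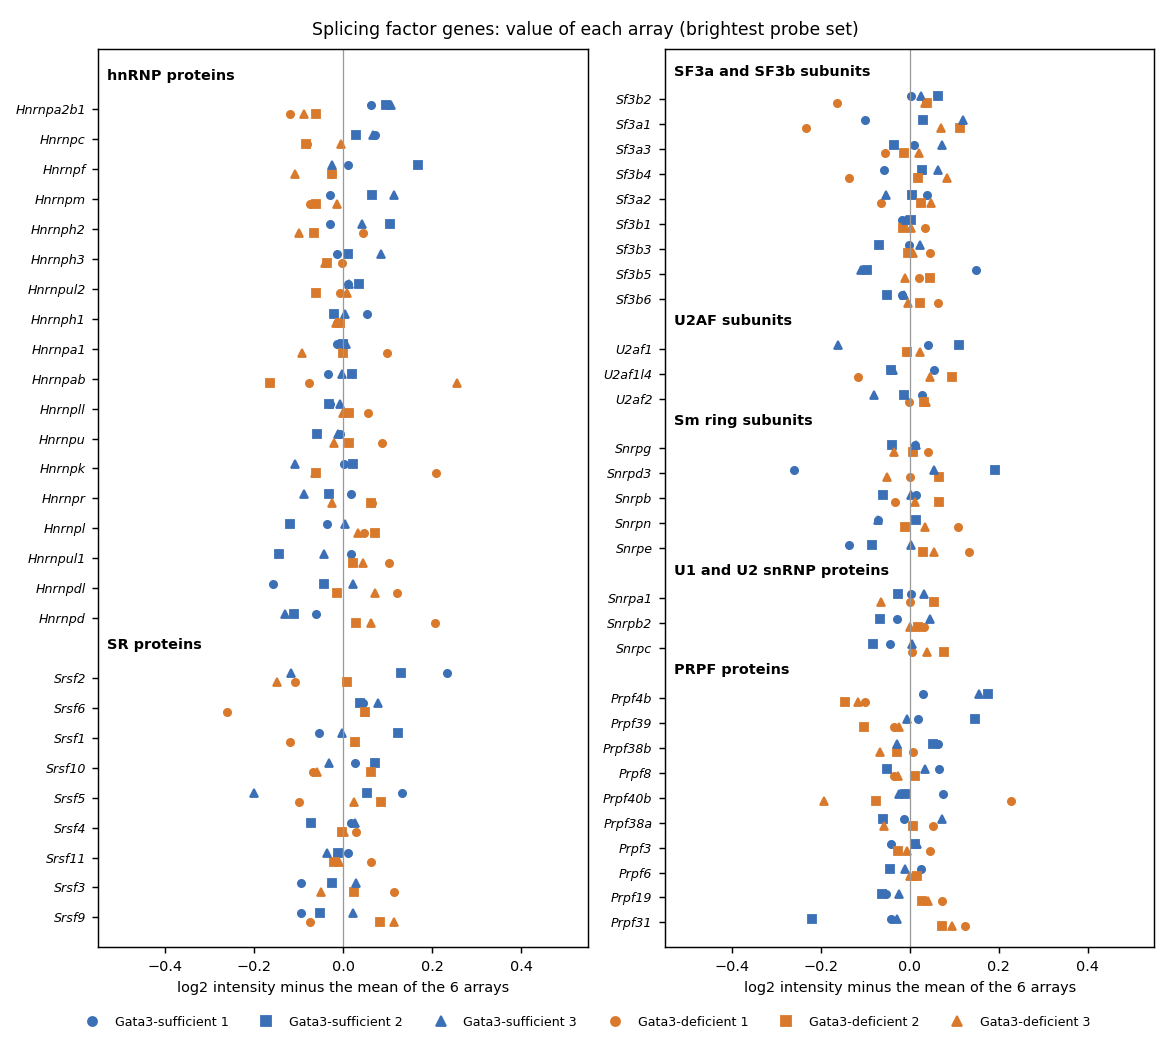
Each row is a splicing factor gene and each point an array (blue, Gata3-sufficient; orange, Gata3-deficient; shapes give the replicate), as log2 intensity of the brightest probe set minus the gene's mean over the 6 arrays. In Prpf4b and Hnrnpa2b1, 2 of the 14 genes whose groups do not overlap, the colours separate with the deficient arrays to the left. The groups overlap in the other 43 of 57 genes, and in 9937 of 12394 over all genes.

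The changes were narrowly spread around 0. Over the 57 members 35 changes were positive and 22 negative, against 6570 and 5824 over all genes tested. The members' median was 0.0096, against 0.0078 over all genes tested, and their range was -0.24 to 0.20. On the brightest probe set none of the members changed by more than 1.25-fold in either direction, which 4.33% of all genes did. Another probe set went beyond that in Hnrnpu (-0.36) and in Sf3a1 (0.67). The 95% interval of the change lay within 1.25-fold either way (0.32 on the log2 scale, a size chosen after the values were seen) for 54 members, and for 62% of all genes. The 3 whose interval reached past it were Prpf4b (-0.35 to -0.13), Prpf31 (0.05 to 0.34) and Srsf2 (-0.35 to 0.02). The members also varied less within groups, with a median SD of 0.05 in both groups against 0.09 in both over all genes, and 56 of the 57 probe sets that stood for members were not dim, against 7890 of 12394 genes. Summed over members, the arrays barely moved: the mean shift lay between -0.0035 and -0.00049 in the sufficient and between -0.0027 and 0.0055 in the deficient arrays.

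**Figure D2:**
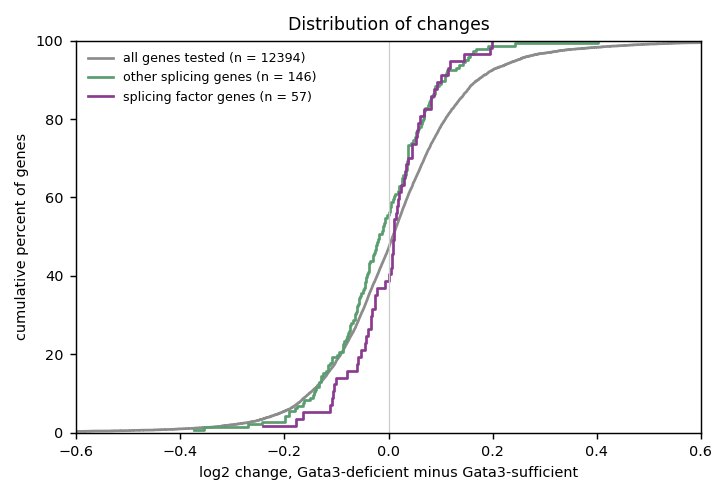
Cumulative percent of genes (vertical axis) against the log2 change between the groups (horizontal axis, which leaves out the extremes of all genes) for the 57 splicing factor genes, 146 other splicing genes and all 12394 genes tested. The splicing factor genes run from -0.24 to 0.20 with a median of 0.0096, while the curve for all genes has longer tails on both sides.

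Among the 18 hnRNP genes 1 fell, Hnrnpa2b1, 10 changes were positive and 8 negative. Hnrnpd, whose product AUF1 also binds AU-rich elements and controls mRNA decay, read 10.54, 10.49 and 10.47 in the sufficient and 10.81, 10.63 and 10.66 in the deficient arrays. The groups did not overlap, and deficient replicate 1 was the highest. The change of 0.20 ± 0.05 (SE, adjusted p = 0.0938 by limma) was the largest positive one among the members and did not pass. Hnrnpc, an hnRNP that packages long pre-mRNA and limits the use of cryptic exons, read 11.99, 11.94 and 11.98 against 11.83, 11.83 and 11.91, a change of -0.11 ± 0.04 (adjusted p = 0.205). Hnrnpul1, a relative of the scaffold protein hnRNP U, read 10.18, 10.02 and 10.12 against 10.27, 10.18 and 10.21, so that sufficient replicate 1 and deficient replicate 2 nearly met. Its change was 0.11 ± 0.05 (adjusted p = 0.357). Hnrnpl and Hnrnpll, the CD45 splicing regulators, were chosen after their values were seen and had changes of 0.10 ± 0.05 and 0.05 ± 0.04 (adjusted p = 0.381 and 0.68), with 95% intervals of -0.0059 to 0.21 and -0.04 to 0.13.

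None of the 9 SR protein genes passed, 0 had an unadjusted p under 0.05 in limma, and in all 9 the groups overlapped. Over all genes 14.4% had such a p, and the groups overlapped in 9937 of 12394. Srsf2, known as SC35 and a marker of nuclear speckles, had the largest decrease of the family. It read 11.25, 11.15 and 10.90 in the sufficient and 10.91, 11.03 and 10.87 in the deficient arrays (change -0.16 ± 0.08, adjusted p = 0.406), with sufficient replicate 3 among the deficient values. Srsf9 (0.08 ± 0.06) had the largest increase, and Srsf3, a small SR protein that also takes part in mRNA export, had 0.06 ± 0.05. Srsf6 read 11.40, 11.40 and 11.44 against 11.10, 11.41 and 11.41. Only deficient replicate 1 was low, and without it the change of -0.11 became -0.0045.

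The SF3a and SF3b subunits, which hold the U2 snRNP on the branch point, stayed within a narrow range. Their 9 changes lay between -0.06 (Sf3b2) and 0.06 (Sf3b6), with 0 past the threshold and adjusted p of 0.599 or more. Sf3b1, the largest SF3b subunit and a frequent target of mutation in myeloid neoplasms, read 11.97, 11.99 and 11.98 in the sufficient and 12.03, 11.98 and 11.99 in the deficient arrays. Its change was 0.01 ± 0.04 (SE), with a 95% interval of -0.06 to 0.09. Sf3a3 and Sf3b3 had changes of -0.03 ± 0.05 and 0.03 ± 0.05. Deficient replicate 1 was the lowest of the 6 arrays for Sf3b2, Sf3a1, Sf3a2, Sf3a3 and Sf3b4, and the highest for Sf3b1, Sf3b3 and Sf3b6.

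The U2AF subunits recognise the 3' splice site. U2af2, the large subunit, had a change of 0.05 ± 0.05 (SE), U2af1, the small one, 0.0066 ± 0.07, and its paralogue U2af1l4 0.02 ± 0.07. The groups overlapped in all 3, and did so in most genes (9937 of 12394). The Sm proteins form the ring around most spliceosomal RNAs. All 5 changes in measured Sm genes were positive, that of Snrpn on a dim probe set, and 0 passed. Snrpe, the ring's E subunit, read 11.68, 11.73 and 11.82 against 11.95, 11.85 and 11.87. The groups did not overlap by a narrow margin, and the change was 0.15 ± 0.05 (adjusted p = 0.175 by limma). Snrpb, Snrpd3 and Snrpg changed by 0.03, 0.0097 and 0.0096, and Snrpd3 had a wide spread in the sufficient arrays (9.68 to 10.14). The probe set that stood for Snrpn, an Sm gene expressed mostly in brain, was the only dim one among the 57, at 4.62 to 4.80. It does not give the level of Snrpn RNA: of the 4 probe sets shared by Snurf and Snrpn, which were left out, 2 read 9.49 to 9.85 and 9.54 to 9.75 over the 6 arrays and the other two were dim. Of the U1 and U2 proteins, Snrpc had a change of 0.08 ± 0.05, Snrpb2 of 0.03 ± 0.05 and Snrpa1 of -0.0067 ± 0.05.

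The 10 PRPF genes held the largest decrease of all members, Prpf4b, and 5 positive and 5 negative changes. Prpf31, a U4/U6 protein that bridges the tri-snRNP, read 8.03, 7.85 and 8.04 in the sufficient and 8.19, 8.14 and 8.16 in the deficient arrays. The groups did not overlap, and sufficient replicate 2 was the lowest by far. The change of 0.19 ± 0.07 (SE, adjusted p = 0.188 by limma) did not pass. Prpf19, a ubiquitin ligase and the core of the complex that activates the spliceosome, read 9.47, 9.46 and 9.50 against 9.59, 9.55 and 9.56 (0.09 ± 0.04, adjusted p = 0.361). Prpf39, a U1-associated protein, read 9.57, 9.69 and 9.54 against 9.51, 9.44 and 9.52 (-0.11 ± 0.05, adjusted p = 0.409). Prpf8, the scaffold of the catalytic centre, had a change of -0.03 ± 0.05.

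Several probe sets of a gene read the same RNA samples, so they are repeats of the measurement and not of the mouse. They can read different transcripts of the gene. Of the 57 members 36 had several probe sets, 120 in all. The change had the same sign in every probe set of 16 of these genes, 8 in each direction, and in 20 the signs differed. Over all 4958 genes with several probe sets, 51.7% had a single sign. The members have more probe sets per gene: 23 of the 36 have 3 or more, against 1902 of the 4958. With 2 probe sets 8 of 13 members had 1 sign (60.6% of all such genes), with 3 it was 2 of 10 (43.1%) and with 4 it was 5 of 7 (32%). With dim probe sets left out, a comparison added after the data were seen, 16 of 35 members and 60.3% of all genes had a single sign. The median range of the change within a gene was 0.12 in the members and 0.12 over all genes, while the median size of a member's change was 0.05.

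**Figure D3:**
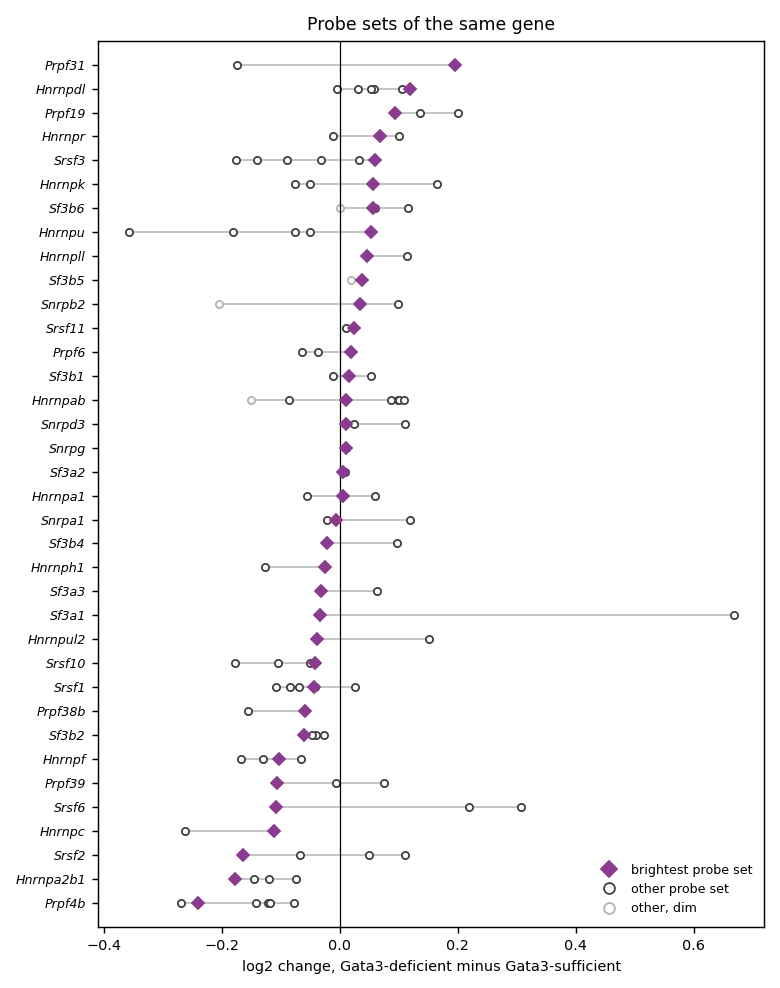
Each row is one of the 36 splicing factor genes with several probe sets, ordered by the change of the brightest (filled diamond); open circles are the other probe sets, grey where dim, and the horizontal axis is the log2 change. All probe sets of Prpf4b and Hnrnpa2b1 lie left of 0, while those of Srsf6 and Hnrnpu lie on both sides.

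The probe sets of the 2 members that fell pointed one way. All 6 of Prpf4b had a negative change, from -0.27 to -0.08. From the brightest to the dimmest they were -0.24 ± 0.05, -0.08 ± 0.06, -0.27 ± 0.09, -0.12 ± 0.06, -0.12 ± 0.05 and -0.14 ± 0.11 (SE). In 4 of the 6 the groups did not overlap, and the brightest, by which the gene was picked, is among these. All 4 of Hnrnpa2b1 were negative as well, at -0.18 ± 0.04, -0.12 ± 0.05, -0.08 ± 0.06 and -0.15 ± 0.05. In 2 of the 4 the groups did not overlap, again with the brightest among them. On the brightest probe set the groups did not overlap in 19.8% of all genes. Among all 20393 probe sets with 1 gene, 1.69% passed when adjusted over probe sets, 1.02% as higher and 0.677% as lower, and of the 141 of the members 2 passed. These were the brightest of Prpf4b (adjusted p = 0.0476 by limma) and the second of Srsf6, while the brightest of Hnrnpa2b1 had 0.0524. With the mean of a gene's probe sets in place of the brightest, the changes were -0.16 and -0.13 and neither gene passed (adjusted p = 0.195 and 0.17).

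Srsf6 had a probe set that passed in the direction opposite to its brightest. Its product is the SR protein also known as SRp55. Against the change of -0.11 ± 0.08 in the brightest probe set, the second read 10.41, 10.23 and 10.41 in the sufficient and 10.73, 10.63 and 10.61 in the deficient arrays. All 3 deficient values were higher, and this probe set rose by 0.31 ± 0.06 (SE, adjusted p = 0.0397 by limma over all probe sets). The third read 9.37, 9.40 and 9.39 against 9.72, 9.53 and 9.56, again with no overlap, and its change of 0.22 ± 0.06 did not pass (adjusted p = 0.107). In deficient replicate 1 the brightest probe set was the lowest of the 6 arrays and the other two were the highest. The second kept its call in 1 of the 6 fits with an array left out, that without sufficient replicate 1, and lost it without each of the other 5 arrays (adjusted p up to 0.142) and without the intensity trend (0.171). Which transcripts each probe set reads was not analysed here, since the probe sequences were not used.

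Hnrnpu, a nuclear matrix protein that binds RNA and chromatin, had changes that ran from 0.05 ± 0.04 in the brightest of 5 probe sets through -0.05, -0.08 and -0.18 to -0.36 ± 0.10 (SE) in the dimmest. That last probe set read 7.92, 7.87 and 7.98 in the sufficient and 7.32, 7.63 and 7.73 in the deficient arrays. Deficient replicate 1 was the lowest, and the change did not pass (adjusted p = 0.118). Hnrnpk, an hnRNP that binds C-rich RNA, had 2 positive and 2 negative changes, between -0.08 and 0.17. Srsf2 likewise had 2 of each, from -0.16 to 0.11, and Srsf3 had 4 negative and 2 positive changes over 6 probe sets, from -0.18 to 0.06. Sf3a1 had the widest range, -0.03 and 0.67, but the second of its probe sets scattered within both groups (6.71, 6.03 and 5.59 against 7.30, 6.91 and 6.14) and had an SE of 0.31. Where probe sets agreed without a call, Hnrnpf had 4 negative changes (-0.17 to -0.07), Hnrnpc 2 (-0.26 and -0.11) and Prpf19 3 positive ones (0.09 to 0.20). In these 3 genes 0 probe sets passed in limma. Among other members with many probe sets, Hnrnpab had 5 positive and 2 negative changes (-0.15 to 0.11), Hnrnpdl 5 and 1 (-0.0048 to 0.12), and Srsf1 1 and 5 (-0.11 to 0.02). All 4 of Srsf10 were negative (-0.18 to -0.04). Hnrnpr, Hnrnpa1, Prpf6 and Hnrnpul2 had changes of both signs, within -0.06 to 0.15, and none of the probe sets of these 8 genes passed. The left-out probe sets that Hnrnpa1 shares with other genes had changes of 0.26, 0.11 and 0.07 and were not tested.

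**Figure D4:**
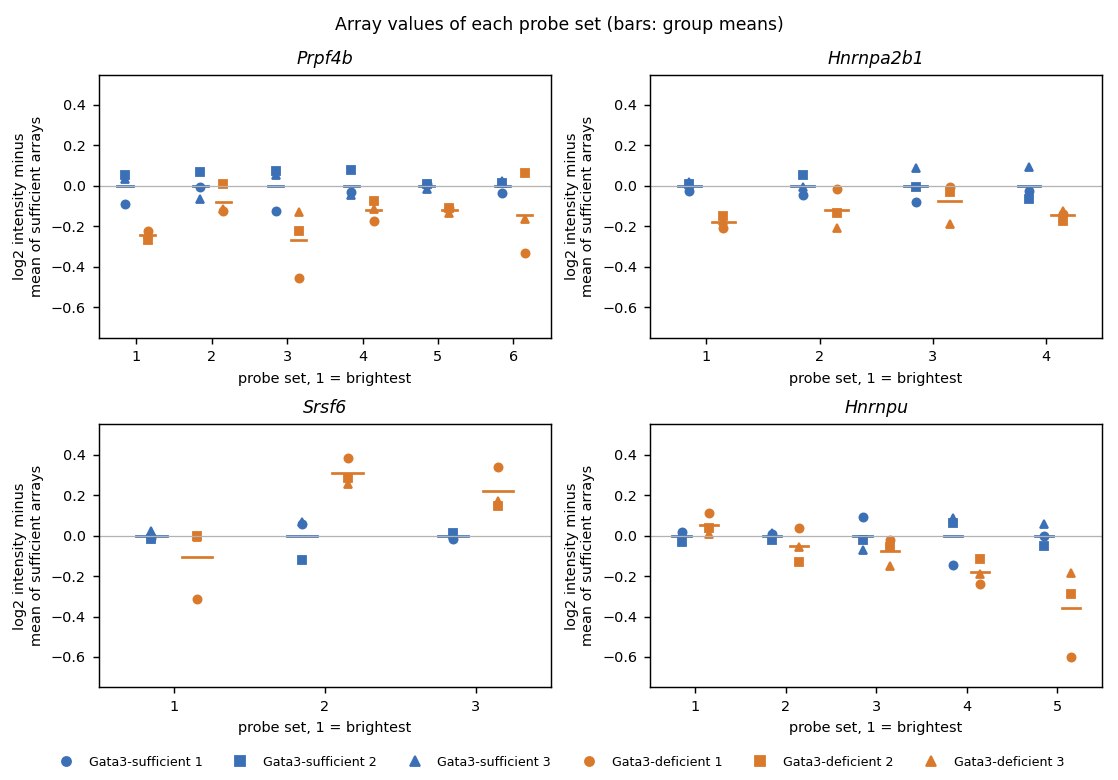
Panels show Prpf4b, Hnrnpa2b1, Srsf6 and Hnrnpu; the horizontal axis numbers the probe sets from the brightest, points are arrays (blue, Gata3-sufficient; orange, Gata3-deficient; shapes give the replicate) as log2 intensity minus the mean of the sufficient arrays, and bars are group means. In Srsf6 the deficient mean is at -0.11 on the brightest probe set and at 0.31 and 0.22 on the other two.

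The wider splicing machinery was read from a list of 183 genes outside these families, of which 146 were measured. In this list 1 gene fell and 0 rose, against 0.766% lower and 1.44% higher over all genes. It had 65 positive and 81 negative changes, against 6570 and 5824 over all genes, and a median of -0.02, against 0.0078. At an unadjusted p under 0.05 by limma 11 were higher and 15 lower, against 8.63% and 5.8% of all genes. The gene that fell was Srpk1, which encodes a kinase that phosphorylates SR proteins and so brings them into the nucleus. It read 9.16, 9.17 and 9.24 in the sufficient and 8.67, 8.90 and 8.88 in the deficient arrays. The groups were well apart, and the single probe set fell by 0.37 ± 0.07 on the log2 scale (SE, adjusted p = 0.0219 by limma). It passed in 3 of the 6 fits with 1 array left out, and not without sufficient replicates 2 or 3 or deficient replicate 2 (adjusted p up to 0.101). It did not pass without the intensity trend (0.104).

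Of the 9 kinase and phosphatase genes in that list, which act on SR proteins, 7 changes were negative and 2 positive. Clk4, a CDC2-like kinase named after its values were seen, had a change of -0.18 ± 0.05 (SE) that did not pass (adjusted p = 0.0882 by limma), with -0.22 ± 0.05 on its other probe set. Next to Srpk1 in p among the lower genes were Rbm39, Rbm14 and Tra2a, whose products regulate exon choice. Rbm39 (-0.20 ± 0.04, adjusted p = 0.0544) was negative in its brightest probe set only, and its 8 other probe sets had changes from 0.00037 to 0.10. Rbm14 (-0.24 ± 0.06) and Tra2a (-0.27 ± 0.07) had adjusted p of 0.0818 and 0.0867. On the higher side Pspc1, a paraspeckle protein, had 0.40 ± 0.10 (adjusted p = 0.0846), and Rbm8a, Ccdc12 and Khdrbs1 had 0.15, 0.14 and 0.16, with adjusted p from 0.15 to 0.191. Pspc1 passed with the replicate number as a block (0.0221) and with array weights (0.037). Groups of this list by step of the reaction had medians between -0.06 (kinases and phosphatase) and 0.03 (U1 and minor spliceosome proteins).

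Some other signals moved with the groups, and others overlapped between them. Of 19 measured proliferation genes 18 changes were positive and 6 genes rose, with mean shifts of -0.30 to -0.04 in the sufficient and 0.11 to 0.25 in the deficient arrays. The 6 Treg markers, all with positive changes and 1 past the threshold (Tnfrsf4, which encodes OX40), shifted by -0.13 to -0.02 and 0.06 to 0.11, and the 7 T cell markers by -0.06 to 0.04 and -0.03 to 0.07. The 6 neutrophil markers shifted by -0.29 to -0.17 and -0.15 to 0.64, and the 8 myeloid markers by -0.26 to -0.03 and -0.05 to 0.27. Deficient replicate 1 was the lowest deficient array in both lists (-0.15 and -0.05). In the myeloid list it lay among the sufficient arrays. Of the neutrophil and myeloid markers 4 and 3 were dim, and 0 passed the threshold in either list. All 6 neutrophil changes were positive, as were 6 of the myeloid ones, with 2 negative. The largest were S100a9 at 1.10 ± 0.31 and Lyz2 at 1.02 ± 0.26 (SE, adjusted p = 0.113 and 0.0849 by limma). Neither was dim, and the groups did not overlap in either, but deficient replicate 1 lay close to the highest sufficient array. It read 5.10 against 5.02 in S100a9 and 6.55 against 6.54 in Lyz2. The 5 measured B cell markers shifted by -0.0021 to 0.07 and -0.17 to 0.04, the 3 of NK cells by 0.04 to 0.18 and -0.35 to 0.07, the 2 of CD8 T cells by -0.09 to 0.04 and -0.03 to 0.09, and the 2 of erythroid cells, both dim, by -0.09 to 0.12 and -0.10 to 0.03. As a sign of RNA quality, the 3' minus 5' difference of the Gapdh control probe sets lay between 0.38 and 0.55 and that of Actb between 0.75 and 0.91, with overlapping groups. The part of any of these in the changes of Prpf4b, Hnrnpa2b1, Srsf6 or Srpk1 was not tested.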

How the data were processed

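Biotinylated cRNA was made from 6 ug of Trizol-extracted RNA, per the labels' protocols. The authors deposited log2 intensities per probe set. The submitters' processing notes name RMA, with its version not stated. RMA quantile normalizes the arrays, so a shift shared by all transcripts would not be seen. The log2 scale was taken from the values. Of 22690 probe sets 20393 had 1 annotated gene, 691 had several and 1606 were not listed. All 57 member symbols matched the RefSeq table of GRCm38.p6 by Entrez identifier. Probe sets were not filtered.

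Groups were compared unpaired in R 4.3.3 with limma 3.58.1 (lmFit, eBayes with intensity trend, two-sided, Benjamini-Hochberg over all 12394 genes or, for probe sets, over 20393), with a threshold of 0.05. SE is limma's moderated standard error. Nothing beyond the design text says how the 3 samples of a group relate. An exact permutation test of 3 against 3 cannot give a p below 0.1. The fit was also run on simulated data, and the outcome is not given here. The members and lists were chosen with earlier results of these data known. Named were members past the threshold, up to 4 with the smallest p and the extremes in each family, some of the members with 3 or more probe sets or disagreeing ones (which the rule allowed without requiring), the leading genes of the wider list, and a few more chosen after their values were seen (Clk4, Hnrnpl, Hnrnpll, Prpf8, Sf3a2). Alternatives were the replicate block, variance settings, array weights, normalization, dim probe sets, the choice of probe set, thresholds and arrays left out. Figures used matplotlib 3.10.9 in Python 3.11.15.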

Additional observations from a re-analysis of the deposited data

How the results depend on the processing

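With the replicate number as a block the count of members past the threshold stayed at 2 (Prpf4b and Hnrnpa2b1), and that of the wider list went from 1 to 2; over all genes it went from 274 to 368. The labels give same-numbered arrays of the 2 groups only a shared number. Deviations of same-numbered arrays from their group means correlated at 0.04, -0.02 and 0.07, and those of differently numbered arrays at -0.06 to 0.02. With 3 arrays a group these values cannot settle whether the arrays were paired.

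The count of 2 members became 0 without the intensity trend, with median centring (adjusted p = 0.0526 for Prpf4b and 0.0543 for Hnrnpa2b1), with the mean of all probe sets, without the _x_at, _s_at and _a_at probe sets (49 members left) and at an adjusted p of 0.01. It was 1, Srsf6, with the second brightest probe set. Leaving out 1 array gave 0 to 1 members, 0 to 3 genes of the wider list, a members' median of 0.0057 to 0.024, and 13 to 18 genes whose probe sets had a single sign. The wider list gave 6 genes with array weights and at 0.10, 2 with median centring or dim probe sets left out, and 0 without the trend, without those probe sets and at 0.01. Repeated quantile normalization moved the members' median to -0.00077. Genes past the threshold over the whole table, a count added after seeing the data, went from 54 without the trend to 585 with array weights, and from 62 to 270 with an array left out.

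Changes of genes that had not passed turned sign as follows; the cause was not tested. The second brightest probe set gave -0.013 (Sf3b1), -0.032 (Srsf3), -0.051 (Hnrnpu), -0.076 (Hnrnpk), -0.17 (Rbm8a and Prpf31), 0.058 (Rbm39), 0.063 (Sf3a3), 0.11 (Srsf2), 0.31 (Srsf6, past the threshold) and 0.67 (Sf3a1). The mean of all gave -0.013 (Rbm8a), -0.024 (Snrpb2), -0.058 (Srsf3), -0.12 (Hnrnpu), 0.015 (Sf3a3), 0.024 (Rbm39), 0.030 (Snrpa1), 0.14 (Srsf6) and 0.32 (Sf3a1). Without _x_at, _s_at and _a_at it was -0.14 (Srsf3), -0.21 (Snrpb2), 0.049 (Srsf2) and 0.058 (Rbm39). Array weights gave -0.0094 (Hnrnpk), -0.010 (U2af1), 0.0025 (Snrpa1) and 0.029 (Sf3a1), and repeated quantile normalization -0.0034 (U2af1). With an array left out the changes ranged from -0.0090 to 0.030 (Snrpg), -0.034 to 0.10 (Hnrnpk), -0.095 to 0.0065 (Sf3b2), -0.098 to 0.075 (Sf3a1), -0.027 to 0.079 (U2af1l4), -0.072 to 0.063 (U2af1) and -0.036 to 0.024 (Snrpa1). With 3 arrays a group the median SE of a member's change was 0.05, and the probe sets that stood for all members but Snrpn were above the dim range.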
